A study of Homo sapiens with 10 samples.

Results

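Transcript levels of 39 genes of homologous recombination, the Fanconi pathway and the DNA damage checkpoint were described in human liver cancer cell lines after inhibition of CDK4/6, of XPO1 or of both. The genes were taken by symbol from the 20030 entries of a table of FPKM (fragments of a transcript divided by its length and by the mapped fragments of the library), and each of the 39 was found. RNA of 3 established lines, named PLC, 97H and Huh7 in the labels, had been sequenced in 10 libraries, 1 per line and treatment. The combination (CDK4/6 inhibitor + XPO1 inhibitor) and the XPO1 inhibitor, given as KPT330 in the titles, were each applied to PLC and 97H. The CDK4/6 inhibitor, for which the labels give no compound name, and the vehicle control were each applied to PLC, 97H and Huh7. The labels state no dose, duration of treatment or batch. The line therefore serves as the replicate. The p-values rest on a spread in which differences of treatment effects between lines and variation between single libraries cannot be told apart.

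Homologous recombination repairs a double-strand break by copying the sister chromatid. Nucleases resect the broken ends, BRCA1 with BARD1 and PALB2 brings in BRCA2, BRCA2 and a family of paralog proteins assemble the filament that searches for the matching sequence, and RAD54L drives strand exchange. In the Fanconi pathway a core complex attaches ubiquitin to FANCD2 and FANCI at DNA crosslinks, which leads to incision and then to recombination. ATM and ATR are the kinases that signal the damage to CHEK2 and CHEK1. Many of these genes are transcribed mainly in S and G2 phase, and E2F factors, which RB1 restrains and CDK4 and CDK6 release, are known to activate a number of them. XPO1 is the main export receptor of the nucleus.

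Promoter sequences are shown for EXO1 and RAD54L, the members that passed the test in the most settings described further on, and for 3 further members that hold an E2F word. The windows run from 250 bases before to 50 bases after a RefSeq transcript start (GRCh38.p14), 300 bases in all, and 35 of the 39 members had one. The words searched on both strands were TTTGGCGC, TTTCCCGC, TTTGCCGC and TTTCGCGC, and capitals mark a match.
EXO1: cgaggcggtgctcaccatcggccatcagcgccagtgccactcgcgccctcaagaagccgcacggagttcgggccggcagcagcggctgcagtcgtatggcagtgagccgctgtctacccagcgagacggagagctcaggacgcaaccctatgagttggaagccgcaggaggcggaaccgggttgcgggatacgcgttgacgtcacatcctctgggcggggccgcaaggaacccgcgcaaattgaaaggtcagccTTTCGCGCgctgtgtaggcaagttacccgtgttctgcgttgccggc
FANCA: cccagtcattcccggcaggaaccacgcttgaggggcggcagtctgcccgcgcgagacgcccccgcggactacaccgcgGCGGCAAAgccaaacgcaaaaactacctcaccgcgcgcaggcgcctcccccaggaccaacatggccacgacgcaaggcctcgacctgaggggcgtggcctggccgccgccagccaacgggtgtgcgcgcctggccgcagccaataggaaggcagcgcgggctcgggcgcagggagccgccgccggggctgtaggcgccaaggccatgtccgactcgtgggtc
FANCD2: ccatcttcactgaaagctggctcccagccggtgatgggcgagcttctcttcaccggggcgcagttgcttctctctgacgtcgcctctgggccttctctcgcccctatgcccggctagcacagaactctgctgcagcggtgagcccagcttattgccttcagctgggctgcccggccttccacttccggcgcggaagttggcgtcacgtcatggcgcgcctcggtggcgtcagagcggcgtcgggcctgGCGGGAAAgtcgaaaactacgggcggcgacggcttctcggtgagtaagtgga
XRCC2: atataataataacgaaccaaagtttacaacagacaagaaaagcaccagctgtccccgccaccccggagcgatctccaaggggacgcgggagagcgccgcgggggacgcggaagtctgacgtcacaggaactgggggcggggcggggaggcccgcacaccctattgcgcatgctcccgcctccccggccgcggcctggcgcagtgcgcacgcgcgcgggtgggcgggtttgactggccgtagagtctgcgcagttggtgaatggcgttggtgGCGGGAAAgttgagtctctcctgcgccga
RAD54L: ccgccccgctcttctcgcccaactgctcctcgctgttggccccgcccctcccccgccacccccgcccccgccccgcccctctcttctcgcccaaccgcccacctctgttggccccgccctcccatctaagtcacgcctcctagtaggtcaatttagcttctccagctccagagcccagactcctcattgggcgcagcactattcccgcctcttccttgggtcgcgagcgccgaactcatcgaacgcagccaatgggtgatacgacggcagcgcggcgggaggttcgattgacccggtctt
The windows lie at chr1:241847954-241848253 on the plus strand (EXO1), chr16:89816598-89816897 on the minus strand (FANCA), chr3:10026187-10026486 on the plus strand (FANCD2), chr7:152676092-152676391 on the minus strand (XRCC2) and chr1:46247438-46247737 on the plus strand (RAD54L). The match begins at position 4 relative to the start in EXO1, -172 in FANCA, -2 in FANCD2 and 21 in XRCC2, and the letters of the RAD54L window hold none of the words. In all, 8 of the 35 members with a window held a word in at least 1 of their windows (22.9%): EXO1, FANCA, FANCC, FANCD2, GEN1, RMI1, TOPBP1 and XRCC2. The share was 4.0% of the 27303 genes with a RefSeq window and 6.9% of those that were also tested here. The word TTTGAA of the cell cycle homology region, whose letters cannot share a base with these words, was in 5 of the 35 members (14.3%). These were ATM, BRIP1, FANCC, HELQ and POLQ, of which only FANCC was tested here. Across the 27303 genes the share was 18.2%, and 12.9% of those also tested here held the word. A match of letters describes the window and is not a measured binding site.

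The libraries had between 14033 and 15264 genes above 0 FPKM. Their absolute depth is unknown, since FPKM keeps no count. Of 11 hepatocyte and liver cancer markers, 6 were above 1 FPKM in each library, and the 11 summed to 2922 to 12448 FPKM. Most of the sum in the 97H control was KRT8 and KRT18 (2113 and 785 FPKM). APOA1, APOB, TF and FGB stood at 0.244 to 0.989 FPKM there. Albumin (ALB) stood at 2.32 to 15.8 FPKM in 97H and at 1062 and 1261 FPKM in Huh7. Markers of other cell types moved with the treatments. The 4 leukocyte markers summed to 126.6 FPKM under the combination, 24.3 under the XPO1 inhibitor, 64.0 under the CDK4/6 inhibitor and 22.7 in the control of PLC, and to 81.1, 51.0, 65.9 and 48.5 FPKM in 97H, nearly all of it CD68, while the leukocyte antigen PTPRC stayed at or below 0.0226 FPKM in the 10 libraries. The 4 fibroblast markers summed to 30.7 FPKM under the combination and 3.58 FPKM in the control of 97H, most of it LUM, and to 0.279 and 0.122 FPKM in PLC. In Huh7 the fibroblast markers summed to 58.9 FPKM with the CDK4/6 inhibitor and 16.6 FPKM in the control, and the leukocyte markers to 8.6 and 2.82 FPKM. The 3 endothelial markers stayed at 0.034 to 4.26 FPKM. The 3 biliary markers summed to 672 and 486 FPKM under the combination and in the control of 97H, most of it KRT19. In PLC they summed to 8.96 and 1.74 FPKM, with SOX9 at 7.44 and 0.871 FPKM and KRT19 at 1.25 and 0.829 FPKM. The part of these shifts in the results below was not tested.

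The members were expressed at low to moderate levels, with none at 0 FPKM. Their median level in PLC was 1.64 FPKM under the combination, 3.57 under the XPO1 inhibitor, 4.06 under the CDK4/6 inhibitor and 2.17 in the control. In 97H the medians were 1.17, 2.26 and 1.83 FPKM under those treatments and 3.58 FPKM in the control. In Huh7 the median was 1.83 FPKM with the CDK4/6 inhibitor and 3.73 FPKM in the control. PLC thus had its highest medians under the single inhibitors, while the control had the highest median in 97H and in Huh7. Over all tested genes the medians in PLC were 7.53, 7.96, 8.44 and 6.47 FPKM in the same order, also highest under the single inhibitors. For 97H they were 6.67, 6.75, 6.04 and 6.70 FPKM, and for Huh7 7.53 FPKM with the CDK4/6 inhibitor and 7.60 FPKM in the control. MUS81, a subunit of a structure-specific nuclease, had the highest mean level over the 10 libraries (17.3 FPKM), followed by the core complex gene FANCG (12.8 FPKM) and RMI2 (11.1 FPKM). The lowest were the helicase gene BRIP1 (0.264 FPKM), BRCA2 (0.294 FPKM) and FANCB (0.305 FPKM). Those 3 and BRCA1, RAD54B, RMI1, GEN1, POLQ, HELQ, ATR and ATM had means under 1 FPKM and were left out of the tests, so 28 of the 39 members were tested. BRCA1 (0.993 FPKM), RMI1 (0.968 FPKM) and RAD54B (0.907 FPKM) missed that limit narrowly, and BARD1 (1.20 FPKM) and BLM (1.25 FPKM) passed it narrowly.

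**Figure D1:**
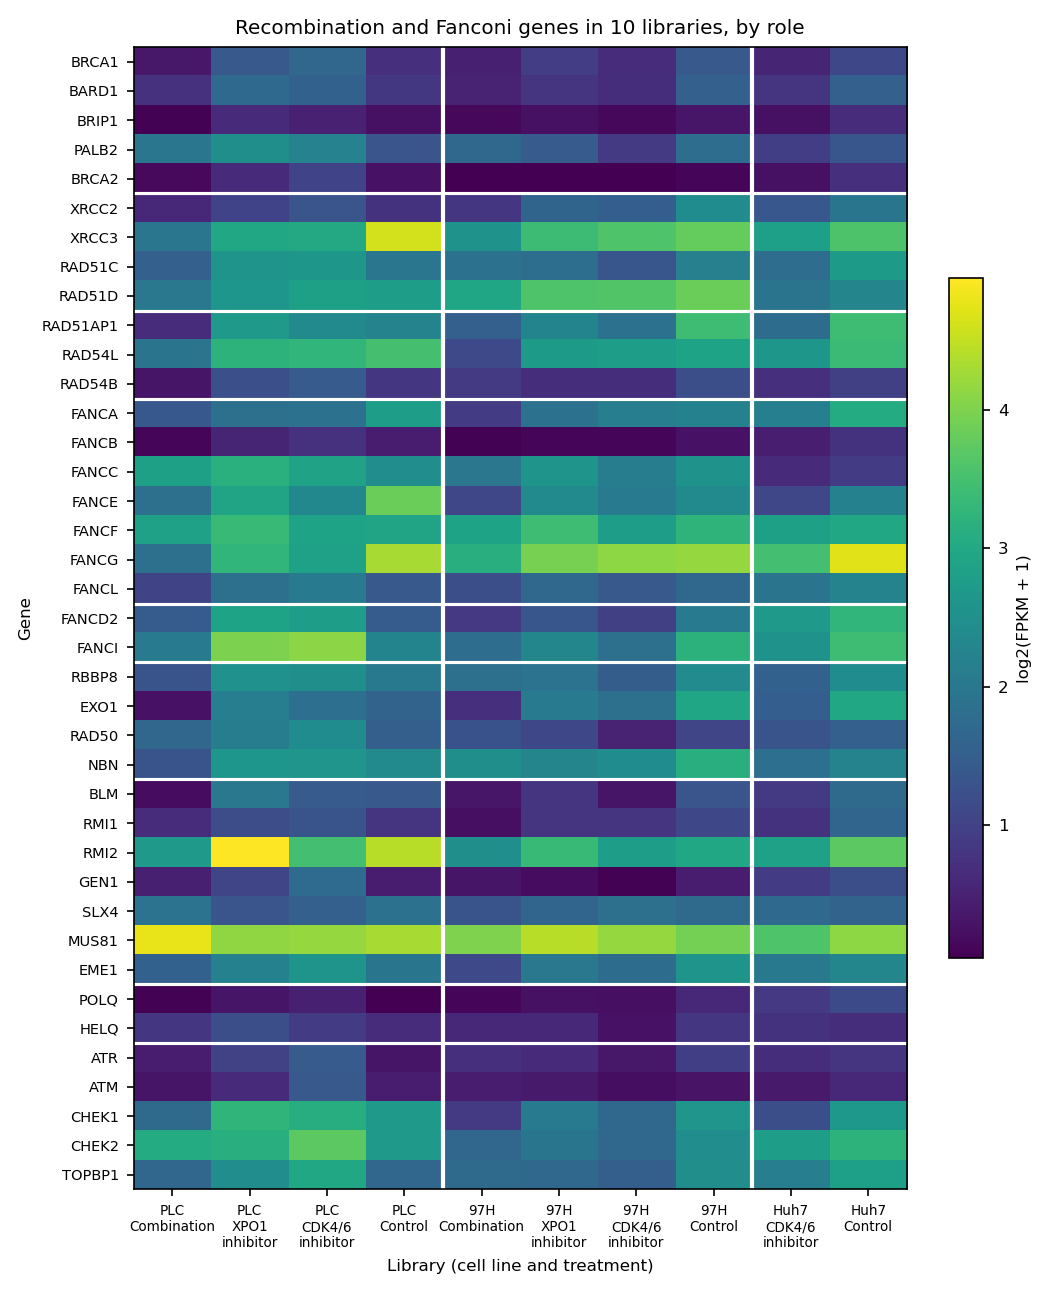
Level of each of the 39 genes in the 10 libraries, as log2(FPKM + 1), with genes in rows grouped by role and libraries in columns grouped by line. In PLC the 2 columns of the single inhibitors are brighter than the control for most genes, and in 97H and Huh7 the control column is the brightest for most genes.

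The combination gave the lowest level of its line for much of the list. Of the 39 members, 27 had their lowest level of the 4 treatments under the combination in PLC, 23 in 97H and 18 in both lines (46.2%). Among the 10477 tested genes of the table the share with the lowest level under the combination in both lines was 9.9%. In bulk RNA, fewer cells that transcribe a gene and less of its RNA per cell cannot be told apart. The exceptions include 4 genes with their highest level of a line under the combination: MUS81 and the nuclease scaffold gene SLX4 in PLC, and RAD50, part of the complex that holds broken ends, and ATM in 97H.

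The first question was whether both inhibitors together changed the members relative to the control in PLC and 97H. Differences were fitted with limma on log2(FPKM + 1), which shrinks the differences of genes at low levels, with the line as a block and the Benjamini-Hochberg adjustment over the 10477 tested genes. No member of the 28 tested passed an adjusted p of 0.05, where 83 of the 10477 genes did (0.792%), 32 up and 51 down. At an unadjusted p under 0.05 there were 12 members, each lower under the combination, against 12.4% of tested genes. The median log2 difference of the 28 members was -0.83, against 0.07 over all tested genes. By line it was -0.40 in PLC, where 20 members were lower, and -0.96 in 97H, where 26 were lower. With trends of GC content and length removed, as described further on, the medians were -0.64 in PLC and -0.88 in 97H. In both lines 20 of 28 were lower (71.4%, against 24.2% of the tested genes). Over all 39 members, counting those left out of the test, 27 were lower in PLC and 36 in 97H (against 42.7% and 51.0% of the tested genes), with median ratios of FPKM to the control of 0.658 in PLC and 0.48 in 97H.

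**Figure D2:**
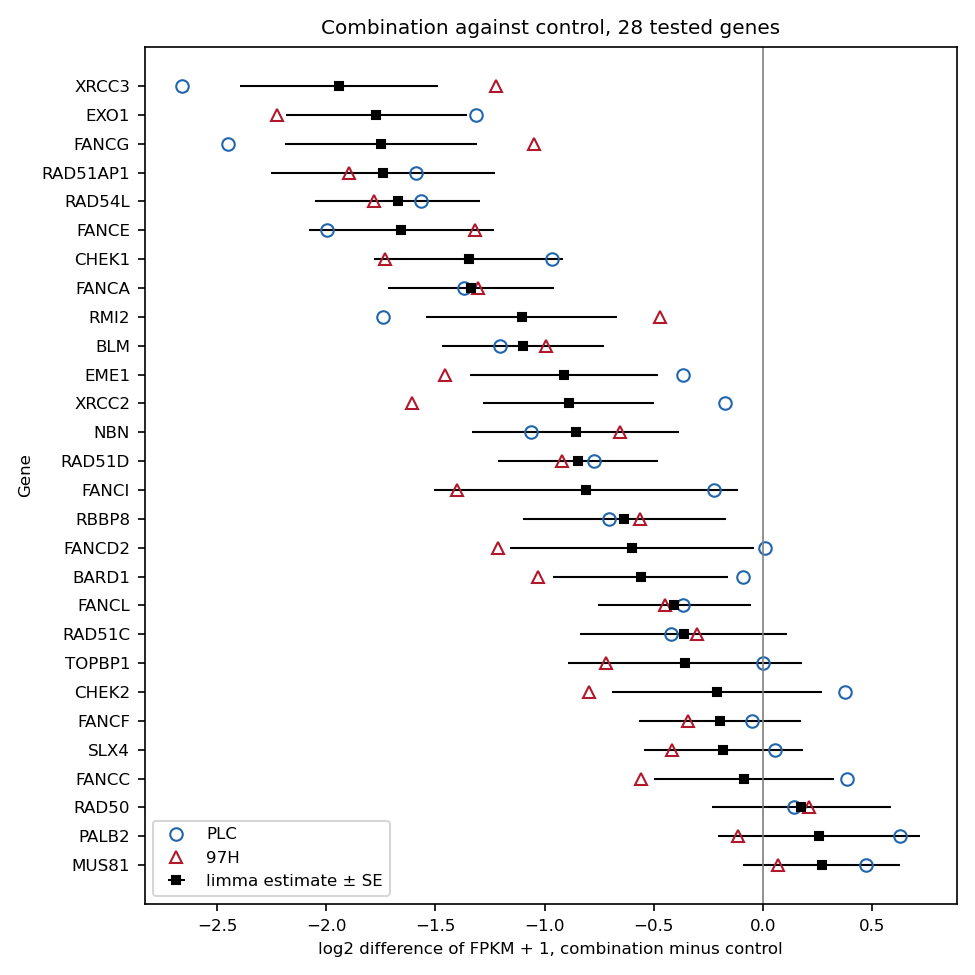
Log2 difference of FPKM + 1, combination minus control, for the 28 tested genes, with open circles for PLC, open triangles for 97H and squares with bars for the limma estimate and its standard error (n = 2 lines). The estimates run from -1.94 for XRCC3 to 0.27 for MUS81, and 25 of the 28 lie below 0.

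Among genes of end resection, EXO1 encodes the exonuclease that extends the resected tract (chromosome 1, 241847967 to 241895148). Its level was 0.216 FPKM in PLC and 0.619 FPKM in 97H under the combination, 3.42 and 3.20 FPKM under the XPO1 inhibitor, 2.58 and 2.62 FPKM under the CDK4/6 inhibitor, and 2.02 and 6.58 FPKM in the controls. In Huh7 it was 1.83 FPKM with the CDK4/6 inhibitor and 6.76 FPKM in the control. Both combination libraries lay below the other 8. The fitted difference from control was -1.77 (SE 0.41, limma adjusted p = 0.118), with a 95% interval from -2.71 to -0.83. RBBP8 (CtIP, which starts resection) had an estimate of -0.64 and NBN, a partner of RAD50, one of -0.86, with limma adjusted p of 0.662 and 0.519. RBBP8 has 1 pseudogene by name, so its reads are less certain. RAD50 was at 0.17 (adjusted p = 0.923), with 2.18 and 1.41 FPKM under the combination and 1.88 and 1.09 FPKM in the controls of PLC and 97H.

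RAD54L, the translocase that acts in strand exchange (chromosome 1, 46247688 to 46278473), had the smallest adjusted p of the members. It stood at 2.82 FPKM in PLC and 1.17 FPKM in 97H under the combination, 8.33 and 5.59 FPKM under the XPO1 inhibitor, 8.67 and 5.95 FPKM under the CDK4/6 inhibitor, and 10.3 and 6.43 FPKM in the controls. In Huh7 it was 5.22 FPKM with the CDK4/6 inhibitor and 9.52 FPKM in the control. The 2 combination libraries were the lowest of the 10, while each single inhibitor lay within 1 log2 unit of the control of its line. The estimate was -1.67 (SE 0.38, limma adjusted p = 0.105, interval -2.53 to -0.82). RAD51AP1, which stimulates strand exchange and has 1 pseudogene by name so that its reads are less certain, had 0.575 and 1.91 FPKM under the combination and 3.73 and 9.81 FPKM in the controls (-1.74, adjusted p = 0.201). With the CDK4/6 inhibitor it had 4.27 FPKM in PLC and 2.64 FPKM in 97H.

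Of the paralog genes XRCC2, XRCC3, RAD51C and RAD51D, whose products help the recombination filament form, XRCC3 (chromosome 14, 103697609 to 103715504) had the largest estimate of any member. Its level was 2.89 FPKM in PLC and 4.92 FPKM in 97H under the combination, 6.81 and 9.60 FPKM under the XPO1 inhibitor, 7.05 and 11.2 FPKM under the CDK4/6 inhibitor, and 23.6 and 12.8 FPKM in the controls. In Huh7 it was 6.00 FPKM with the CDK4/6 inhibitor and 11.03 FPKM in the control. The combination libraries were again the lowest of the 10, and the PLC control stood far above the other controls. The estimate was -1.94 (SE 0.45, limma adjusted p = 0.118, interval -2.97 to -0.91). The other paralogs had estimates of -0.89 (XRCC2), -0.85 (RAD51D) and -0.36 (RAD51C), each lower in both lines, with adjusted p between 0.386 and 0.843. XRCC2 was at 0.758 FPKM under the combination and 4.35 FPKM in the control of 97H, but at 0.497 and 0.691 FPKM in PLC.

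In the Fanconi core complex, FANCG, FANCE and FANCA were lower under the combination in both lines, and FANCF and FANCC had estimates close to 0. FANCG (chromosome 9, 35073835 to 35080016) had 2.61 FPKM in PLC and 7.66 FPKM in 97H under the combination, 8.69 and 14.5 FPKM under the XPO1 inhibitor, 6.20 and 16.4 FPKM under the CDK4/6 inhibitor, and 18.7 and 16.9 FPKM in the controls. In Huh7 it was 10.2 FPKM with the CDK4/6 inhibitor and 25.6 FPKM in the control. The combination libraries lay below the controls, but the 97H combination lay above the PLC library with the CDK4/6 inhibitor. The estimate was -1.75 (SE 0.44, limma adjusted p = 0.145, interval -2.74 to -0.76). FANCE had 2.63 and 1.11 FPKM under the combination and 13.5 and 4.25 FPKM in the controls (-1.66, adjusted p = 0.151). FANCA had 1.64 and 0.852 FPKM under the combination and 5.82 and 3.58 FPKM in the controls (-1.34, adjusted p = 0.185), and its 2 combination libraries were the lowest of the 10. The ubiquitin ligase subunit FANCL was at -0.41, FANCF at -0.20 and FANCC at -0.09, with adjusted p of 0.734 to 0.968. FANCB, left out of the test, had 0.093 and 0.050 FPKM under the combination and 0.334 and 0.217 FPKM in the controls.

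FANCD2 and FANCI, the pair that the core complex modifies, differed between the lines. FANCI had 3.11 FPKM in PLC and 2.46 FPKM in 97H under the combination, 14.9 and 3.91 FPKM under the XPO1 inhibitor, 16.0 and 2.62 FPKM under the CDK4/6 inhibitor, and 3.80 and 8.13 FPKM in the controls. FANCD2, which has 1 pseudogene by name, had 1.77 and 0.820 FPKM under the combination, 6.42 and 1.55 FPKM under the XPO1 inhibitor, 5.92 and 0.961 FPKM under the CDK4/6 inhibitor, and 1.75 and 3.22 FPKM in the controls. In PLC the single inhibitors stood far above both the combination and the control, and in 97H the control stood above the 3 treatments. Against control the combination estimates were -0.81 for FANCI and -0.60 for FANCD2 (adjusted p = 0.729 and 0.759), with intervals that reach above 0.

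**Figure D3:**
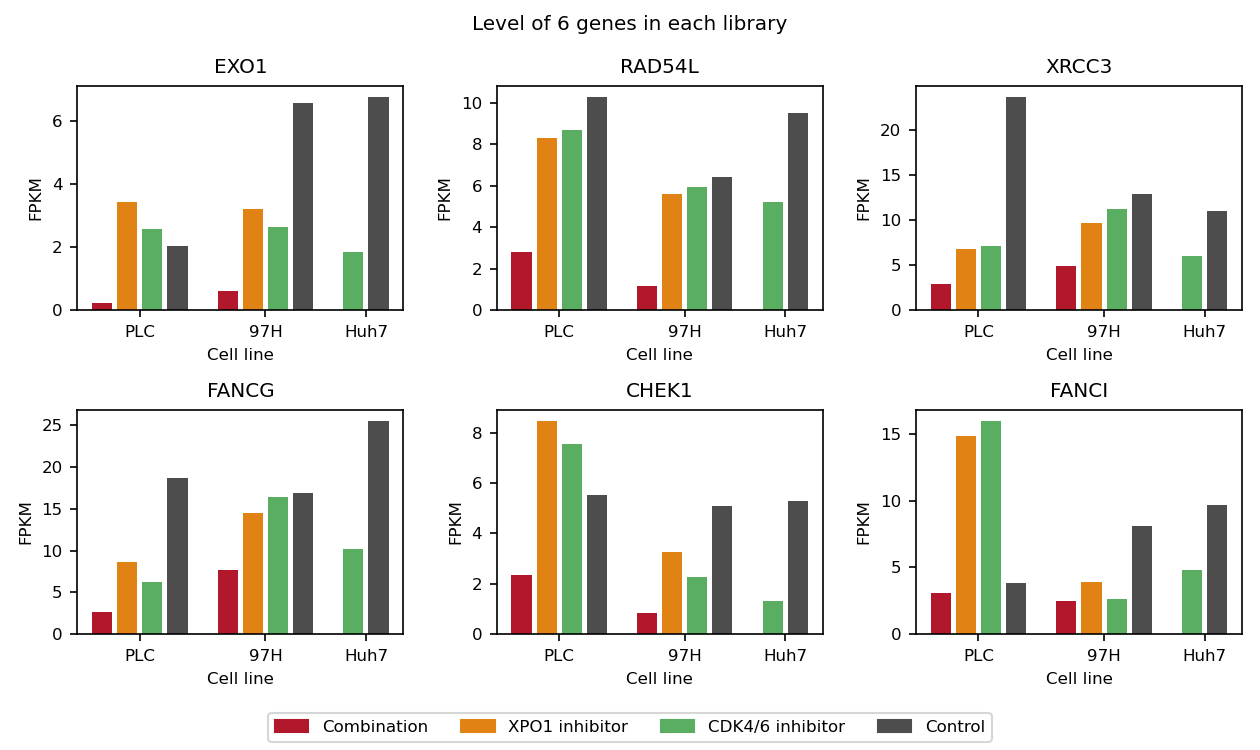
FPKM of EXO1, RAD54L, XRCC3, FANCG, CHEK1 and FANCI in each library, 1 bar per line and treatment, with the axis of each panel starting at 0. The combination bar is the shortest of its line in PLC and 97H in each panel, and in the FANCI panel the single inhibitors in PLC reach 14.9 and 16.0 FPKM.

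Among the enzymes that resolve joined DNA molecules, the helicase gene BLM had 0.151 FPKM in PLC and 0.263 FPKM in 97H under the combination and 1.66 and 1.52 FPKM in the controls. With the CDK4/6 inhibitor BLM was at 1.73 FPKM in PLC and 0.251 FPKM in 97H, so that in 97H the combination did not lie below the single agent. RMI2, a partner of BLM, had 5.40 and 4.61 FPKM under the combination, 29.9 and 9.34 FPKM under the XPO1 inhibitor, 10.1 and 5.86 FPKM under the CDK4/6 inhibitor, and 20.4 and 6.79 FPKM in the controls. Estimates against control were -1.10 for BLM and -1.11 for RMI2 (adjusted p = 0.255 and 0.341). EME1, the partner of MUS81, was at -0.91 (adjusted p = 0.435), and SLX4 at -0.18 (adjusted p = 0.907). MUS81 itself had 26.5 and 14.9 FPKM under the combination and 18.9 and 14.2 FPKM in the controls (0.27, adjusted p = 0.849). The untested RMI1 and GEN1 had 0.579 and 0.387 FPKM under the combination and 0.714 and 0.343 FPKM in the control of PLC, and 0.176 and 0.247 FPKM against 1.16 and 0.345 FPKM in 97H.

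For checkpoint signalling, CHEK1 had 2.34 FPKM in PLC and 0.838 FPKM in 97H under the combination, 8.47 and 3.26 FPKM under the XPO1 inhibitor, 7.57 and 2.26 FPKM under the CDK4/6 inhibitor, and 5.52 and 5.09 FPKM in the controls. In Huh7 it was 1.32 FPKM with the CDK4/6 inhibitor and 5.29 FPKM in the control. The estimate for the combination against control was -1.35 (adjusted p = 0.231). CHEK2, which has 4 pseudogenes by name and hence less certain reads, had 7.34 and 2.14 FPKM under the combination and 5.43 and 4.46 FPKM in the controls, and TOPBP1, the activator of ATR, had 2.17 and 2.35 FPKM under the combination and 2.17 and 4.51 FPKM in the controls. Their estimates were -0.21 and -0.36, with adjusted p of 0.920 and 0.864. The 2 apical kinases were low in both groups: ATR had 0.331 and 0.632 FPKM under the combination and 0.252 and 0.927 FPKM in the controls, and ATM had 0.244 and 0.337 FPKM under the combination and 0.332 and 0.226 FPKM in the controls.

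BRCA1 and its partners were among the least expressed. BRCA1 had 0.282 FPKM in PLC and 0.385 FPKM in 97H under the combination, 1.67 and 0.920 FPKM under the XPO1 inhibitor, 2.17 and 0.579 FPKM under the CDK4/6 inhibitor, and 0.628 and 1.67 FPKM in the controls. BARD1, its obligate partner, had 0.668 and 0.430 FPKM under the combination and 0.777 and 1.92 FPKM in the controls (-0.56, adjusted p = 0.651). The combination gave the lowest level of the line for both genes in both lines. PALB2, which links BRCA1 to BRCA2, did not follow them and had 2.91 and 2.20 FPKM under the combination and 1.54 and 2.46 FPKM in the controls (0.26, adjusted p = 0.894). BRCA2 had 0.116 and 0.041 FPKM under the combination and 0.218 and 0.075 FPKM in the controls. POLQ, the polymerase of alternative end joining, reached at most 0.497 FPKM in PLC and 97H. The helicase gene HELQ had 0.763 and 0.510 FPKM under the combination and 0.588 and 0.750 FPKM in the controls. Without the filter on low levels, the 11 members left out of the test had limma adjusted p of 0.638 or more.

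The counts of called members differed when trends of GC content and length were removed. Across the tested genes with a GC value, the log2 difference of the combination from control had a Spearman correlation with transcript GC content of -0.291 in PLC and 0.258 in 97H, while across the 28 members it was -0.112 and 0. With both trends removed from each library, 9 of the 28 members fell under the combination, where 713 of 10442 genes were called (6.83%): BLM, CHEK1, EXO1, FANCA, FANCE, FANCG, RAD51AP1, RAD54L and XRCC3. Their estimates ran from -1.24 for BLM (adjusted p = 0.0293) to -2.01 for XRCC3 (adjusted p = 0.00565), and the smallest adjusted p was 0.00459, for EXO1 at -1.89. Their standard errors ran from 0.21 to 0.30. The fit does not count the degrees of freedom spent on the trends. With all 10 libraries in the fit, EXO1, FANCE, FANCG, RAD54L and XRCC3 fell (5 of 28, where 2.49% of all tested genes were called). Without the 97H control the estimates of XRCC3 and FANCG were -2.63 and -2.35, and the median of the members moved to -0.26. Without the 97H library of the CDK4/6 inhibitor the estimate of EXO1 was -1.77. A missing library leaves its group 1 line, which is then assumed to vary like the other groups.

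Other repair genes, from lists that hold none of the 39, were compared with them under the combination. Of 40 tested genes among 46 further recombination and Fanconi genes, none passed in either direction, and the list median was -0.19. The smallest p there belonged to MND1 (-2.19, adjusted p = 0.0876) and UBE2T, the ubiquitin-conjugating enzyme of the Fanconi core complex (-1.64, adjusted p = 0.106). No gene passed among 9 tested genes of non-homologous end joining (median -0.26), 5 of mismatch repair (-0.11) or 27 of base and nucleotide excision repair (-0.11). The smallest p in the excision repair list belonged to PARP1 (-1.35, limma adjusted p = 0.0876). It was followed by DDB2, which was higher (1.19, adjusted p = 0.18), and XRCC1 (-1.25, adjusted p = 0.224). At an unadjusted p under 0.05 limma gave 6, 1, 0 and 4 genes in these 4 lists. Of 14 tested reference genes of the cell cycle 6 fell and none rose: MCM4, PCNA, CCNA2, MCM2, MCM7 and CDT1, with estimates from -1.76 to -3.02 and a list median of -1.93. The part of this shift in the levels of the repair genes was not tested.

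The CDK4/6 inhibitor alone could be compared with the control in all 3 lines. Of the 28 members none passed in limma, and none of the 10477 tested genes did (0%). At an unadjusted p under 0.05 there were 4 members and 922 genes. The members moved in opposite directions between lines: their median log2 difference was 0.32 in PLC, -0.72 in 97H and -0.71 in Huh7, where the medians over all tested genes were 0.18, -0.06 and -0.04. Of all 39 members, 9 were lower in PLC and 37 each in 97H and Huh7, against 39.9%, 55.0% and 54.2% of the tested genes. The members with the smallest p among those lower in each line were FANCE (-0.99, SE 0.29, limma adjusted p = 0.47), FANCG (-0.91, SE 0.32, adjusted p = 0.495), XRCC3 (-0.86, SE 0.33, adjusted p = 0.514) and FANCA (-0.62, SE 0.28, adjusted p = 0.568). FANCE showed this with 4.06, 3.15 and 1.12 FPKM in PLC, 97H and Huh7 with the inhibitor and 13.5, 4.25 and 3.62 FPKM in the controls. The groups overlap for FANCE, since treated PLC lies above the control of Huh7.

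The differences in PLC and 97H ran with GC content in opposite directions. Of the 39 members, the 9 lower in PLC with the CDK4/6 inhibitor had a median transcript GC content of 57.6% (45.4% to 62.5%), and the 30 higher had 41.2% (36.0% to 55.7%). Across the 28 tested members, the log2 difference had a Spearman correlation with GC content of -0.573 in PLC, 0.706 in 97H and 0.112 in Huh7. Across the tested genes with a GC value it was -0.674, 0.724 and 0.176. These are correlations across genes of the same pair of libraries and carry no test. With the trends removed, the median of the members was -0.26 in PLC, -0.37 in 97H and -0.58 in Huh7, so the sign in PLC turned. EXO1 went with the list: its log2 difference in PLC was 0.24 as measured and -0.59 with the trends removed, beside -1.07 and -0.57 in 97H. FANCI and FANCD2 stayed above the control in PLC, at 0.99 and 0.54 with the trends removed and 1.83 and 1.33 as measured, and below it in 97H at -0.90 and -0.71. With the trends removed 0 of 28 members and 0 of 10442 genes passed in limma for the CDK4/6 inhibitor, with 11 members at an unadjusted p under 0.05.

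**Figure D4:**
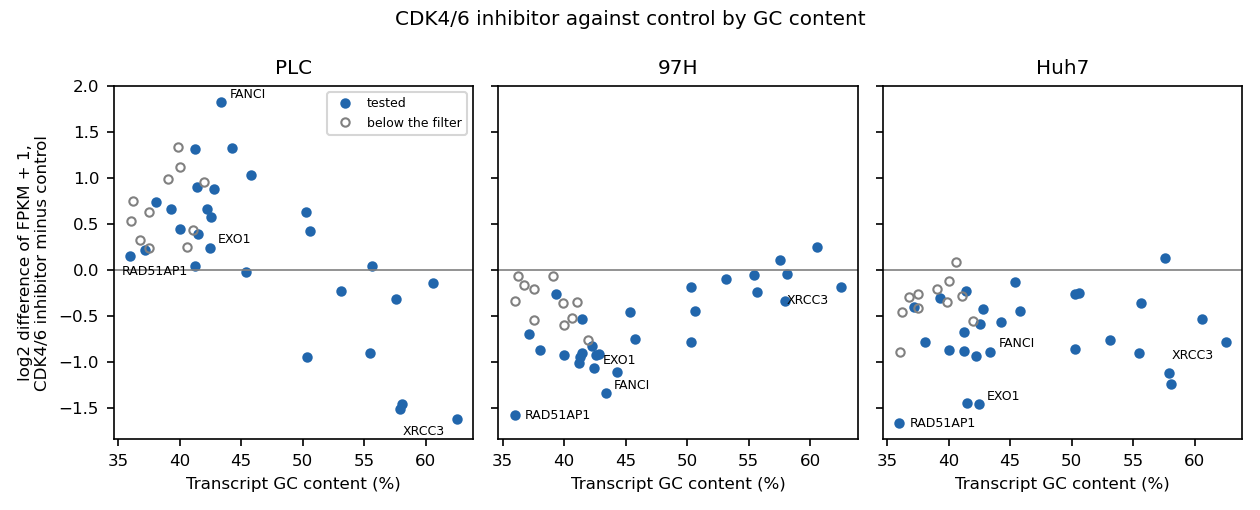
Log2 difference of FPKM + 1, CDK4/6 inhibitor minus control, against transcript GC content in percent for the 39 genes in each line, with filled points for the 28 tested genes and open points for the 11 below the filter. Points slope down in PLC (rho -0.573 over the 28), up in 97H (0.706) and are near level in Huh7 (0.112).

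The XPO1 inhibitor alone was compared with the control in PLC and 97H. None of the 28 members passed in limma, none of the 10477 tested genes did (0%), and at an unadjusted p under 0.05 there were 0 members and 258 genes. The member medians were 0.46 in PLC and -0.37 in 97H, with 8 and 32 of the 39 lower, against 41.5% and 52.7% of the tested genes. In PLC the 8 lower members had a median GC content of 57.8% and the 31 higher 41.2%, and with the trends removed the medians were -0.21 in PLC and -0.33 in 97H. XRCC3 had an estimate of -1.02 (SE 0.45), FANCG -0.62 (SE 0.44), FANCA -0.61 (SE 0.38) and FANCE -0.48 (SE 0.42), each with a limma adjusted p of 0.968. RMI2 was the member with the highest estimate upward (0.47), with 29.9 and 9.34 FPKM under the inhibitor and 20.4 and 6.79 FPKM in the controls.

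The combination was also set against each single inhibitor in the 2 lines. Against the CDK4/6 inhibitor no member passed in limma (0% of tested genes called), with 5 members and 345 genes at an unadjusted p under 0.05. RAD54L had an estimate of -1.51 (SE 0.38, limma adjusted p = 0.545), EXO1 of -1.36 (SE 0.41, adjusted p = 0.823), CHEK1 of -1.09 (SE 0.43, adjusted p = 1) and XRCC3 of -1.04 (SE 0.45, adjusted p = 1). The member medians were -0.998 in PLC and -0.18 in 97H. With the GC and length trends removed RAD54L fell (-1.51, adjusted p = 0.0245), where 0.517% of genes were called, and the medians were -0.62 and -0.42. Of the 39 members 37 were lower in PLC and 24 in 97H, against 57.8% and 42.7% of the tested genes.

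Against the XPO1 inhibitor no member passed either (0% of tested genes called), with 8 members and 520 genes at an unadjusted p under 0.05. The members with the smallest p were EXO1 (-1.62, SE 0.41, limma adjusted p = 0.47), RAD54L (-1.45, SE 0.38, adjusted p = 0.5), RMI2 (-1.58, SE 0.44, adjusted p = 0.566) and CHEK1 (-1.36, SE 0.43, adjusted p = 0.736). Medians were -0.99 in PLC and -0.52 in 97H, and 37 and 28 of the 39 were lower, against 56.0% and 47.1% of the tested genes. With the trends removed EXO1 (adjusted p = 0.0394) and RAD54L (adjusted p = 0.0323) fell, where 0.709% of genes were called. The 3 comparisons with the combination share its 2 libraries and are not independent of each other.

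An interaction term set the combination beside the added differences of its parts: combination minus CDK4/6 inhibitor minus XPO1 inhibitor plus control, on the log2 scale. No member passed in limma (0% of tested genes called), with 1 member and 60 genes at an unadjusted p under 0.05. RAD54L was that member, at -1.29 (SE 0.53, limma adjusted p = 1, interval -2.49 to -0.08), with -1.06 in PLC and -1.51 in 97H. EXO1 was at -1.21 (SE 0.59), CHEK1 at -1.10 (SE 0.61) and FANCL at -0.83 (SE 0.50), with adjusted p of 1. XRCC3 was at -0.02, with 0.61 in PLC and -0.66 in 97H. The member medians were -1.34 in PLC and -0.09 in 97H, against -0.21 and 0.01 over all tested genes. With the trends removed the member medians were -0.38 and -0.13, against 0.02 and -0.02. Across the tested genes with a GC value, the interaction had a Spearman correlation with GC content of 0.801 in PLC and -0.656 in 97H. FANCI had -3.78 in PLC and 0.83 in 97H, and -2.61 and 0.37 with the trends removed.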

How the data were processed

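The 39 genes and the other lists were chosen with earlier results of these data known. The submitters' processing notes name CASAVA 1.8.2, STAR 2.4.2g1, featureCounts and Subread as tools and GRCh38 as the build. The deposited table holds FPKM made by the authors, and how these came from the counts is not given in the sources used here. For 27 entries the symbol had become a date. Huh7, PLC and 97H form replicates 1 to 3 where a group has 3 libraries, and PLC and 97H form replicates 1 and 2 elsewhere. The pairing by line comes from the labels. Deviations from the group means correlated at 0.665 to 0.901 within a line. Where only PLC and 97H enter, both lines give the same value by construction.

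For genes averaging 1 FPKM or more across 10 libraries, limma (version 3.58.1, under R 4.3.3) was fitted to log2(FPKM + 1), with a variance trend and the line as a block, two-sided, adjusted by Benjamini-Hochberg over 10477 genes and called under 0.05. The CDK4/6 inhibitor comparison used 10 libraries (4 residual degrees of freedom) and the others the 8 of PLC and 97H (3). The limma script was tested on simulated data with planted differences and noise independent between genes. That simulation does not check the p-values where libraries carry trends of GC content or length. Library differences within a line carry no test. GC content and length came from GENCODE 29 (19406 entries, 96.9%, and 10442 tested genes matched), and their trends were removed per library by loess with a span of 0.5. Library depths relative to the PLC combination, read from the steps of low values, were 0.862 to 1.126 but rest on 2.4% to 7.1% of low genes. In the main fits no member was called, so a standard error is given for the 4 members with the smallest p and 1 direction in each line; other members, and those called under an alternative, are given by estimate, adjusted p or a range of standard errors. The values of 1 gene of the further recombination list are not reported here. Alternatives were the pseudocount, filter, scaling, block, variance prior, GC and length trends, libraries in the fit and leaving out each library.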

Additional observations from a re-analysis of the deposited data

Results flagged for a closer look

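With the CDK4/6 inhibitor the median log2 difference of the 28 tested members from control was 0.32 in PLC and -0.72 in 97H, and with the XPO1 inhibitor it was 0.46 in PLC and -0.37 in 97H. Each is listed because PLC and 97H moved in opposite directions under the same comparison. The difference between the lines was not tested, since each line has 1 library per treatment. With the GC content and length trends removed, the medians were -0.26 and -0.37 for the CDK4/6 inhibitor and -0.21 and -0.33 for the XPO1 inhibitor in PLC and 97H.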

How the results depend on the processing

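The number of members called for the combination against control was 0 as reported, 1 with quantile normalization, 1 with median ratio scaling, 9 with GC content and length trends removed, 5 with 10 libraries in the fit, and 0 to 2 when a library was left out. The member called under both scalings was EXO1, and the cause of these changes was not tested. The median of the members in that comparison ran from -1.12 to -0.26 with a library left out. With the trends removed 1 member was called against the CDK4/6 inhibitor, where 0.517% of genes were called. Against the XPO1 inhibitor 2 members were called, where 0.709% of genes were called. A pseudocount of 0.1 moved the median against the XPO1 inhibitor to -1.07. Without the line as a block 0 members and 0 genes passed for the combination against control. Over all genes that comparison called 83, 114 with a pseudocount of 0.1, 0 without a filter, 98 with the filter over the 8 libraries, 140 with quantile normalization, 119 with median ratio scaling, 27 with a single prior variance, 713 with trends removed, 261 with 10 libraries and 0 to 184 with a library left out: 0 when either the combination or the control of PLC was dropped, 2 without the 97H combination, 158 and 184 without the PLC and the 97H library of the CDK4/6 inhibitor, and 166 without the 97H control. No member was called in the main fits, so no called value could reverse. The signs of the 83 called genes were not followed. The XPO1 inhibitor's median against control, 0.00 as reported, ran from -0.32 to 0.40 with a library left out and had no stable sign. Among the alternative values for the counts of members and their medians, 198 stayed within their limits and 10 moved. A median stayed if it shifted by less than the standard deviation of the medians of the lines. By that limit the XPO1 inhibitor's median against control stayed, although its sign changed. The promoter table holds 1 window length, so another length was not run. One library per line and treatment, no absolute depth and low FPKM in 11 members limit precision.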
